A study of Rattus norvegicus with 44 samples.

Results

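The 7 genes described here encode plasma proteins of the acute phase: *A2m* (alpha-2-macroglobulin), *Orm1* (alpha-1-acid glycoprotein), *Hp* (haptoglobin), *Crp* (C-reactive protein), *Cp* (ceruloplasmin), *Hpx* (hemopexin) and *Lbp* (lipopolysaccharide-binding protein). They were found by symbol, as the probe sets whose platform annotation names 1 gene that is, or once was called, 1 of these. That gave 9 probe sets of 31042, or 7 genes of 14217 named on the array, with 3 probe sets for *Cp* and 1 for each other gene, and all 9 were tested. The rats were male Harlan Sprague Dawley animals, 6 to 8 weeks old at assignment, gavaged on 5 days with crude MCHM dissolved in corn oil and killed on the following day. MCHM is methylcyclohexanemethanol, an alcohol used in washing coal. There were 6 dosed groups, at 0.1, 1 and 10 mg/kg per day and at 100, 300 and 500 mg/kg per day, and a vehicle group at 0 mg/kg, which is the corn oil that every group received. Liver RNA was measured on 27 arrays, with 4 at each dose and in the vehicle group except for 3 at 0.1 mg/kg. Kidney RNA was measured on 17 arrays, with 3 at 500 mg/kg, 3 at 300 mg/kg, 3 in the vehicle group and 2 at each other dose.

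Acute phase proteins are made mainly by hepatocytes and secreted into blood. Injury or infection raises cytokines, of which interleukin-6 acts on hepatocytes through STAT3 and C/EBP factors, while glucocorticoids add to the induction of several of these genes. In the rat *A2m* is a major inducible acute phase protein that traps proteases, and *Orm1*, which binds drugs and lipids in plasma, responds to both cytokines and glucocorticoids. *Hp* and *Hpx* bind free haemoglobin and haem, *Cp* is a copper-carrying oxidase of iron, *Lbp* hands bacterial lipopolysaccharide to its receptors, and *Crp* is made at a high basal level in rat liver.

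All values are log2 expression values as the authors deposited them, so a difference of 1 is a doubling, and values of different probe sets do not give relative abundance. Tests are limma contrasts with Benjamini-Hochberg adjustment over all 31042 probe sets and a threshold of 0.05. The arrays of each organ had near-identical distributions, with medians of 5.28 to 5.35 in liver and 5.31 to 5.36 in kidney. Between organs the distributions differed slightly, with a 75th percentile of 7.14 to 7.26 in liver and 7.33 to 7.48 in kidney. The organs matched their labels. The summed linear signal of 9 hepatocyte markers was 121609 to 130323 in liver and 6849 to 14292 in kidney. The kidney sum includes *Hnf4a* and *Cyp2e1*, which kidney also expresses. The summed signal of 8 proximal tubule markers was 1328 to 1721 in liver and 50209 to 58018 in kidney. In the arrays labelled vehicle replicate 2, *Xist*, which is transcribed from the inactive X chromosome of females, stood at 10.999 in liver and 9.33 in kidney, against at most 3.04 in the other 42 arrays, although all rats are labelled male. The kidney array labelled 1 mg/kg replicate 1 stood apart in liver transcripts and is described with the kidney results. The number of arrays per group limits the precision of each value, and in these bulk samples fewer cells of a type and less RNA per cell cannot be told apart.

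The promoter of *Orm1* is shown because *Orm1* is the member that rose in liver at 500 mg/kg against the pooled low doses and because its control by glucocorticoids and C/EBP factors in rat liver is well known. The sequence runs from 250 bases before the gene's start to 50 bases after it, at chr5:81788259-81788558 on the plus strand (RefSeq, assembly GRCr8). Capitals mark matches to a glucocorticoid receptor motif, the letters GNACA followed after 3 bases by their reverse complement TGTNC, and to TTNNGNAA, a C/EBP motif, on either strand.

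Orm1 promoter: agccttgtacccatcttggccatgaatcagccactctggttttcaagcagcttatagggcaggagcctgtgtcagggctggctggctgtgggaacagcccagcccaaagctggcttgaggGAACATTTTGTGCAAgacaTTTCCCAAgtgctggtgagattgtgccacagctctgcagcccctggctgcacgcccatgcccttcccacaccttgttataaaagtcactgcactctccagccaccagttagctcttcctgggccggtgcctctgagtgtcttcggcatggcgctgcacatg

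The glucocorticoid receptor match, GAACATTTTGTGC, begins at position -130 from the start and overlaps the first C/EBP match, TTGTGCAA. The other C/EBP match, TTTCCCAA, begins at position -111. Of 33469 rat promoters of this length, 0.439% hold the glucocorticoid receptor motif, 41.3% the C/EBP motif and 8.87% the STAT motif TTCNNNGAA. Promoters of *Crp*, *Cp* and *Hpx* were searched in the same way, which makes 4 of the 7 genes. They held 2, 1 and 2 C/EBP matches, and none of the 4 promoters held a match to the STAT motif. Only that of *Orm1* among the 4 held the glucocorticoid receptor motif. These are matches of letters in a window and not measured sites. *A2m*, *Hp* and *Lbp* are named only.

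*A2m* fell in liver at 500 mg/kg, and it was the only one of the 7 genes past the threshold in that comparison. Its level (probe set 1367794_at) was 9.48, 10.41, 9.98 and 10.61 in the vehicle livers, 9.72, 10.20 and 9.19 at 0.1 mg/kg, followed by 10.13, 9.70, 9.53 and 9.28 at 1 mg/kg. It was 8.96, 10.41, 9.51 and 9.23 at 10 mg/kg, 9.05, 9.45, 9.63 and 9.77 at 100 mg/kg, followed by 9.57, 9.53, 9.11 and 9.31 at 300 mg/kg. At 500 mg/kg it was 8.17, 8.54, 8.72 and 8.87. The 4 livers at 500 mg/kg were thus below each of the other 23 liver arrays, while all other groups overlapped the vehicle group. The share of all probe sets separated in this way from the other 23 was not counted.

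*A2m* averaged 8.58 ± 0.30 at 500 mg/kg and 10.12 ± 0.50 in vehicle livers (SD, n = 4 each). The difference was -1.54 (SE 0.27, 95% interval -2.10 to -0.99), which is 2.91-fold lower, with a limma adjusted p of 0.0153. By p it ranked 12 among the 31042 probe sets, of which 55 or 0.177% passed, 0.119% higher and 0.058% lower. Non-overlap with the vehicle group was more common, at 2.43% of probe sets lower and 3.4% higher. Without the vehicle liver that carried *Xist*, *A2m* differed by -1.45 with a limma adjusted p of 0.0626. The call was also lost without vehicle replicate 3 (difference -1.59, limma adjusted p 0.0525), without vehicle replicate 4 (-1.38, limma adjusted p 0.0772) and without 500 mg/kg replicate 1 (-1.41, limma adjusted p 0.0578), and it was kept in the other 4 fits that left out an array. A fit of the 500 mg/kg and vehicle livers alone gave the same difference with a limma adjusted p of 0.0841.

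The group means of *A2m* were ordered by dose, at 10.12 in vehicle livers, 9.71, 9.66 and 9.53 at the lowest 3 doses, and 9.48, 9.38 and 8.58 at the highest 3. Neighbouring groups in that order overlapped except at the last step. There the livers at 500 mg/kg were all below those at 300 mg/kg, and the share of all probe sets so separated was not counted. The difference was -0.81 (SE 0.27) with a limma adjusted p of 0.415, in a comparison added once these values were known. At 300 mg/kg *A2m* was 0.74 below vehicle on the log2 scale (SE 0.27, limma adjusted p 0.329), and at 100 mg/kg 0.64 below (SE 0.27, limma adjusted p 0.759).

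The slope over the 7 dose levels, numbered 0 to 6, was -0.20 per level for *A2m* (SE 0.04, limma adjusted p 0.0193), where 0.245% of all probe sets passed, 0.0773% with a negative and 0.168% with a positive slope. *A2m* was again the only member past the threshold. The slope did not pass without the 500 mg/kg group (-0.13, limma adjusted p 0.348) or without the vehicle group (-0.19, limma adjusted p 0.104). It also did not pass without 500 mg/kg replicate 4 (-0.20, limma adjusted p 0.0603), and it passed without the vehicle liver that carried *Xist* (-0.19, limma adjusted p 0.047).

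**Figure D1:**
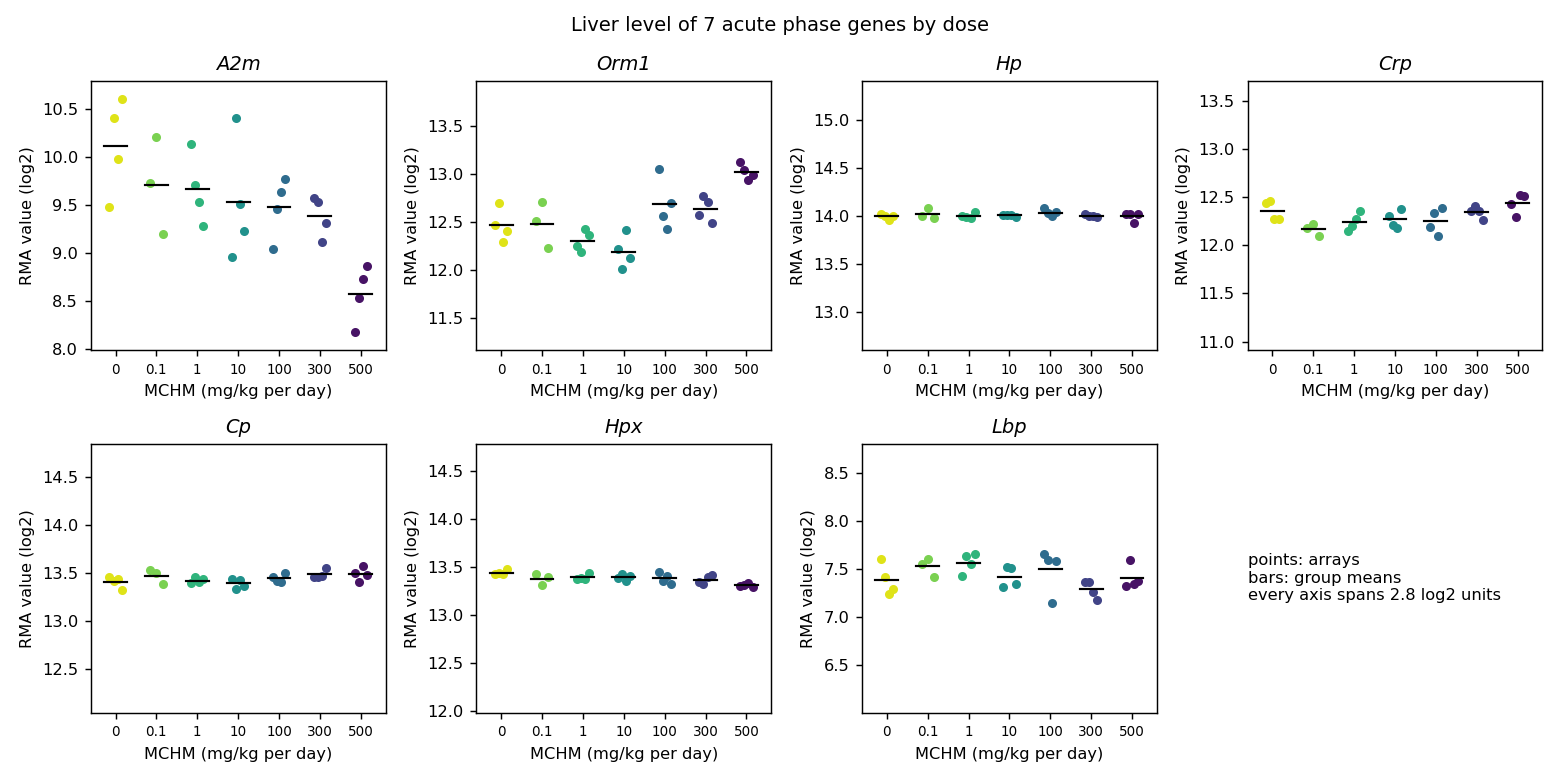
Liver level of each gene (log2 RMA value, vertical axis) by dose of MCHM (mg/kg per day, horizontal axis), with a point for each array and a bar for each group mean. Every vertical axis spans the same number of log2 units, so that the spread of *A2m*, 8.17 to 10.61 over 27 arrays, can be set beside that of *Hp*, 13.93 to 14.08.

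A comparison with the lowest doses avoids the vehicle arrays. Against the mean of the 0.1, 1 and 10 mg/kg groups, *A2m* fell by 1.06 at 500 mg/kg (SE 0.22, limma adjusted p 0.0278), with all 4 livers below all 11 low-dose livers, and *Orm1* rose. This comparison uses the same 4 livers at 500 mg/kg as the comparison with vehicle. In it 0.48% of probe sets passed, 0.319% higher and 0.161% lower, and 2 of the 7 genes, 1 in each direction, were among them. Non-overlap was found for 0.448% of probe sets lower and 0.76% higher. The call for *A2m* was lost without 0.1 mg/kg replicate 1 (-1.05, limma adjusted p 0.0536) and without each of the 4 arrays at 500 mg/kg, replicates 1 to 4, at differences of -0.92, -1.04, -1.11 and -1.15 with limma adjusted p of 0.128, 0.0712, 0.0794 and 0.077.

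*Orm1* (probe set 1368731_at) was highest in liver at 500 mg/kg. Its level was 12.48, 12.70, 12.29 and 12.40 in vehicle livers, 12.51, 12.71 and 12.23 at 0.1 mg/kg, followed by 12.25, 12.19, 12.43 and 12.36 at 1 mg/kg. It was 12.22, 12.01, 12.41 and 12.13 at 10 mg/kg, 13.05, 12.56, 12.43 and 12.69 at 100 mg/kg, followed by 12.58, 12.77, 12.71 and 12.49 at 300 mg/kg. At 500 mg/kg it was 13.13, 13.05, 12.94 and 12.99. A single liver outside the 500 mg/kg group, at 100 mg/kg, reached those values, and the 10 mg/kg group held the lowest.

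Against the pooled low doses *Orm1* rose by 0.70 (SE 0.10, 95% interval 0.49 to 0.90), which is 1.62-fold, with a limma adjusted p of 0.00223 and a rank of 3 among all probe sets by p. It passed with any 1 of 15 arrays left out and did not pass in a joint fit with the kidney arrays (limma adjusted p 0.105). All 4 livers at 500 mg/kg were above all 11 low-dose livers. Against vehicle the difference was 0.56 (SE 0.12, 95% interval 0.31 to 0.81), at 13.03 ± 0.08 at 500 mg/kg and 12.47 ± 0.17 in vehicle livers (SD, n = 4 each). All 4 livers at 500 mg/kg were above all 4 vehicle livers, but the limma adjusted p was 0.0534. It was 0.0624 without the vehicle liver that carried *Xist*, where the difference was 0.64.

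The course of *Orm1* was not ordered by dose. Its means were 12.47 in vehicle livers, 12.48, 12.31 and 12.19 at the lowest 3 doses, and 12.69, 12.64 and 13.03 at the highest 3. The step between 100 and 10 mg/kg was 0.49 (SE 0.12, limma adjusted p 0.578), a comparison added once these values were known. Its reference, the 10 mg/kg group, had the lowest mean. The slope over dose levels was 0.09 per level (SE 0.02, limma adjusted p 0.111). At 100 and 300 mg/kg *Orm1* was 0.22 and 0.17 above vehicle (limma adjusted p 0.858 and 0.703), and both groups overlapped the vehicle group.

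**Figure D2:**
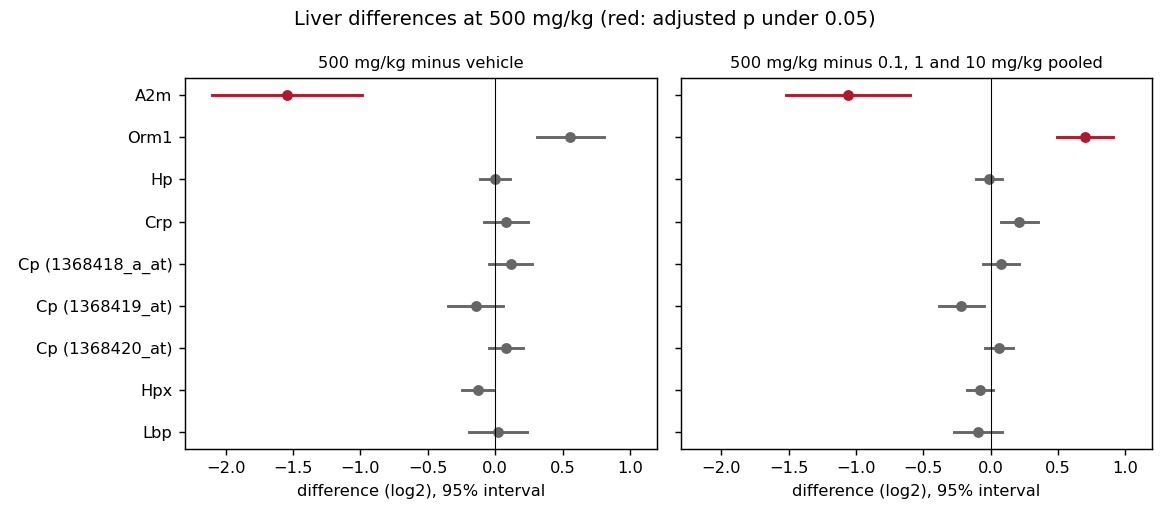
Liver differences on the log2 scale at 500 mg/kg against vehicle (left) and against the pooled 0.1, 1 and 10 mg/kg groups (right), as points with 95% intervals for all 9 probe sets. Red marks a limma adjusted p under 0.05, which *A2m* alone has on the left, at -1.54, and *A2m* and *Orm1* have on the right, at -1.06 and 0.70.

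The scavengers of haemoglobin and haem did not pass the threshold in liver at any dose. *Hp* (1370148_at) was 14.02, 14.01, 13.93 and 14.02 at 500 mg/kg, against 14.02, 14.00, 13.96 and 14.00 in vehicle livers. Over all 27 liver arrays it spanned 0.15 on the log2 scale, the narrowest range of the 7 genes. Its difference at 500 mg/kg was -0.0025 with a 95% interval of -0.12 to 0.11 (limma adjusted p 0.996). *Hp* stood above 99.94% of probe sets in liver, where the highest value of the table is 14.85, and whether such bright probe sets respond in proportion was not tested.

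*Hpx* (1370065_at) was 13.30, 13.32, 13.33 and 13.29 at 500 mg/kg, against 13.42, 13.43, 13.42 and 13.47 in vehicle livers. All 4 livers at 500 mg/kg were below all 4 vehicle livers, and so were all 4 at 300 mg/kg. The difference was -0.13 at 500 mg/kg (SE 0.06, 95% interval -0.25 to -0.01, limma p 0.0313 before and 0.49 after adjustment) and -0.07 at 300 mg/kg (SE 0.06, limma adjusted p 0.748). Of all probe sets 2.43% at 500 mg/kg and 2.37% at 300 mg/kg were lower with no overlap. Both comparisons use the same 4 vehicle livers. Its slope was -0.016 per level (SE 0.0073, limma p 0.0404 before and 0.415 after adjustment). Against the pooled low doses the *Hpx* groups overlapped.

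*Crp* (1387830_at) was 12.43, 12.30, 12.53 and 12.51 at 500 mg/kg, against 12.44, 12.46, 12.27 and 12.27 in vehicle livers. The groups overlapped, with a difference of 0.08 (SE 0.08, limma adjusted p 0.825). Against the pooled low doses the difference was 0.21 (SE 0.07, 95% interval 0.08 to 0.35, limma adjusted p 0.163), again with overlap. The livers at 0.1 mg/kg were at 12.19, 12.22 and 12.10, a difference of -0.19 from vehicle (limma adjusted p 0.951).

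The 3 probe sets of *Cp* did not move together. The brightest in liver, 1368420_at, was 13.50, 13.41, 13.57 and 13.48 at 500 mg/kg, against 13.46, 13.42, 13.44 and 13.32 in vehicle livers, a difference of 0.08 (SE 0.06, limma adjusted p 0.762). Probe set 1368418_a_at differed by 0.11 (SE 0.08, limma adjusted p 0.729). Probe set 1368419_at was 8.61, 8.98, 8.83 and 8.88 at 500 mg/kg, against 9.16, 8.98, 8.81 and 8.93 in vehicle livers, a difference of -0.14 (SE 0.10, limma adjusted p 0.728). Its slope over dose levels was -0.04 per level (SE 0.01, limma adjusted p 0.278), while those of the other *Cp* probe sets were 0.01 (limma adjusted p 0.743 for 1368418_a_at and 0.657 for 1368420_at). In each of these comparisons the groups overlapped.

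*Lbp* (1387868_at) was 7.32, 7.59, 7.34 and 7.38 at 500 mg/kg, against 7.61, 7.41, 7.23 and 7.29 in vehicle livers. The difference was 0.02 (SE 0.10, 95% interval -0.19 to 0.23, limma adjusted p 0.981), and the groups overlapped. Its lowest mean was at 300 mg/kg, at 7.29, and its highest at 1 mg/kg, at 7.56.

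Over the 7 genes the median difference at 500 mg/kg was 0.02, with 4 above 0 and 3 below. The median over all 14217 named genes was 0.01, with 52.8% above 0. At 0.1, 1, 10, 100 and 300 mg/kg none of the 7 genes passed in liver. In these comparisons 0% of all probe sets passed at the lowest 4 doses and 0.122% at 300 mg/kg. At an unadjusted p under 0.05, 1 of the 7 genes passed at 0.1 mg/kg (*Crp*), 0 at 1 mg/kg, 2 at 10 mg/kg, 1 at 100 mg/kg and 1 at 300 mg/kg, all lower, against 5.1%, 5.04%, 5.55%, 6.03% and 9.83% of all probe sets. At 500 mg/kg 3 of the 7 passed that unadjusted limit (8.99% of all probe sets), in the slope 3 (11.2%) and against the pooled low doses 3 (11.1%).

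The macroglobulin family was read beside *A2m*. Of 6 measured genes of that family, 1, *A2m* itself, passed the threshold at 500 mg/kg. All 6, *A2m* included, had differences below 0, with a median of -0.21. Over all named genes the median was 0.01, with 52.8% above 0. *C5*, a complement component of the same protein family, differed by -0.21 (SE 0.07, limma adjusted p 0.355). *Mug1*, a murinoglobulin, averaged 9.84 ± 0.11 at 500 mg/kg and 10.07 ± 0.04 in vehicle livers (SD, n = 4 each), a difference of -0.23 (SE 0.14, limma adjusted p 0.678). *Pzp*, in the rat a macroglobulin of plasma that is abundant without inflammation, averaged 13.51 ± 0.02 at 500 mg/kg and 13.59 ± 0.02 in vehicle livers (SD, n = 4 each, limma adjusted p 0.724).

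Of 32 further positive acute phase genes measured, none passed at 500 mg/kg in the limma fit. At an unadjusted p under 0.05, 0 were higher and 2 lower, against 5.04% of all probe sets higher and 3.95% lower. Their median difference was -0.05, with 8 above 0 and 24 below. The smallest p belonged to *Serpina3m*, an alpha-1-antichymotrypsin-like protease inhibitor, at -0.20 (SE 0.06, limma adjusted p 0.284), and *Apcs*, serum amyloid P, at -0.15 (SE 0.07, limma adjusted p 0.53). In the slope over dose levels and against the pooled low doses, 0 of the 32 passed. At an unadjusted p under 0.05, 5 and 6 of the 32 were lower. That is a larger share than the 5.11% and 5.41% of all probe sets, and the list was not tested as a set.

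Of 19 measured genes that fall in a typical acute phase response, 1 fell at 500 mg/kg, and 3 fell in the slope and against the pooled low doses. Over all probe sets 0.058%, 0.0773% and 0.161% were lower past the threshold in these comparisons. *Serpina7*, thyroxine-binding globulin, averaged 8.68 ± 0.35 at 500 mg/kg and 10.14 ± 0.32 in vehicle livers (SD, n = 4 each), a difference of -1.46 (SE 0.23, limma adjusted p 0.00569). *Serpina6*, which carries corticosteroids in plasma, had a slope of -0.07 per level (SE 0.01, limma adjusted p 0.0315) and differed by -0.44 from the pooled low doses (SE 0.08, limma adjusted p 0.0061) and by -0.41 from vehicle (SE 0.09, limma adjusted p 0.068). *Apoa4*, an apolipoprotein of triglyceride-rich particles, had a slope of -0.09 per level (SE 0.02, limma adjusted p 0.0476) and differed by -0.58 from the pooled low doses (SE 0.12, limma adjusted p 0.0278). Albumin (*Alb*) differed by 0.01 (SE 0.05, limma adjusted p 0.985), and transthyretin (*Ttr*), a carrier of thyroid hormone, by -0.03 (SE 0.05, limma adjusted p 0.925). *Alb* spanned 14.82 to 14.85 in liver, up to the highest value of the table, and *Ttr* 14.14 to 14.24, so a change in either may not show at this brightness. The median of the 19 was -0.09, with 5 above 0 and 14 below.

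**Figure D3:**
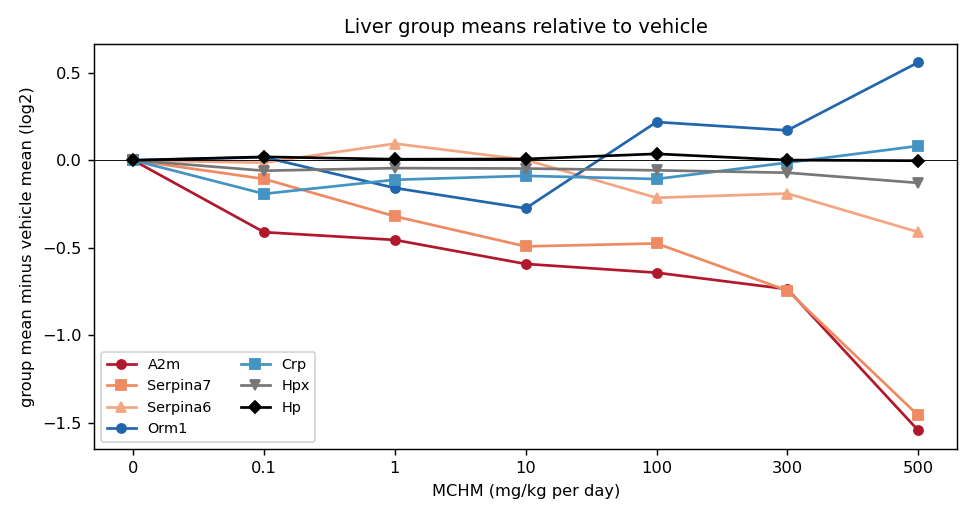
Liver group means minus the vehicle mean (log2, vertical axis) against dose (mg/kg per day, horizontal axis, evenly spaced) for 5 of the 7 genes and for *Serpina7* and *Serpina6*. *A2m* and *Serpina7* reach -1.54 and -1.46 at 500 mg/kg, and *Orm1* reaches 0.56.

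None of 30 measured genes of interleukin-6 and glucocorticoid signalling passed in liver at 500 mg/kg, and their median difference was -0.06. At an unadjusted p under 0.05, 1 was higher and 1 lower, where 5.04% and 3.95% of all probe sets were. The highest of them, *Tsc22d3*, a glucocorticoid-induced leucine zipper gene, differed by 0.51 (SE 0.14, limma adjusted p 0.179), and *Ghr*, the growth hormone receptor, by -0.30 (SE 0.08, limma adjusted p 0.148). *Il6* was at the low end of the scale, at 2.85 ± 0.10 at 500 mg/kg and 2.95 ± 0.17 in vehicle livers (SD, n = 4 each). *Stat3* averaged 8.89 ± 0.15 and 8.96 ± 0.24 in the same groups, and *Socs3*, a feedback inhibitor induced by STAT3, 4.51 ± 0.10 and 4.61 ± 0.07. Neither passed (limma adjusted p 0.92 and 0.869). Of 12 measured receptors and partners of the 7 proteins none passed in the limma fit, and 2 were lower at an unadjusted p under 0.05, the limit that 3.95% of all probe sets passed with a lower level. They are *Slc40a1*, the iron exporter that works with ceruloplasmin, at -0.22 (SE 0.08, limma adjusted p 0.355), and *Heph*, an oxidase related to *Cp*, at -0.41 (SE 0.20, limma adjusted p 0.542).

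Markers of the other liver cell types were read beside these results. At 500 mg/kg against vehicle 52.8% of all named genes were above 0, and 0.058% of all probe sets passed with a lower level. None of 9 hepatocyte markers passed at 500 mg/kg, with a median difference of 0.01 and a summed linear signal of 121609 to 127371 at 500 mg/kg and 124073 to 125857 in vehicle livers. Of 7 macrophage markers none passed and 6 were below 0 (median -0.18, summed signal 3317 to 3460 at 500 mg/kg and 3172 to 4571 in vehicle livers). Of 9 stellate cell and fibroblast markers none passed and all were below 0 (median -0.37, summed signal 2144 to 2563 at 500 mg/kg and 2578 to 3712 in vehicle livers). Of 7 lymphocyte and plasma cell markers 1 fell and all 7 were below 0 (median -0.14, summed signal 262 to 298 at 500 mg/kg and 334 to 386 in vehicle livers). The 1 that fell was *Jchain*, the joining chain of secreted antibodies, at -0.81 (SE 0.17, limma adjusted p 0.0472). Of 5 endothelial markers none passed and 4 were below 0 (median -0.14, summed signal 1461 to 1575 at 500 mg/kg and 1591 to 1778 in vehicle livers). The summed signals at 500 mg/kg lay wholly below those of vehicle livers for the stellate, lymphocyte and endothelial lists. They overlapped those at 10 mg/kg, which were 2227 to 3369, 295 to 370 and 1547 to 1773 in the same order. At 0.1 mg/kg the stellate and endothelial sums overlapped them too, and at 1 mg/kg none of these sums did. Of 5 cholangiocyte markers none passed and all were below 0 (median -0.25, summed signal 519 to 652 at 500 mg/kg and 512 to 780 in vehicle livers), and of 5 neutrophil markers none passed (median -0.02, summed signal 97.3 to 116 at 500 mg/kg and 95.3 to 149 in vehicle livers). The vehicle liver that carried *Xist* was the highest of all liver arrays for 4 of the 9 stellate and 2 of the 5 cholangiocyte markers. It was the highest for 0 of the lymphocyte and 0 of the endothelial markers. The part of these markers' cell types in the result for *A2m* was not tested.

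Across the 27 liver arrays, which share the dose groups, *A2m* and *Orm1* ran in opposite directions (Pearson r -0.53, Spearman rho -0.41), given as a description. After each group's mean was removed, r was -0.13, so the relation lay mainly between dose groups. *Orm1* and *Hp* showed the other order, at 0.27 over all arrays and 0.63 after the group means were removed, and *Hp* and *Lbp* were alike in both (0.57 and 0.59). *A2m* had no r above 0.46 with another member.

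**Figure D4:**
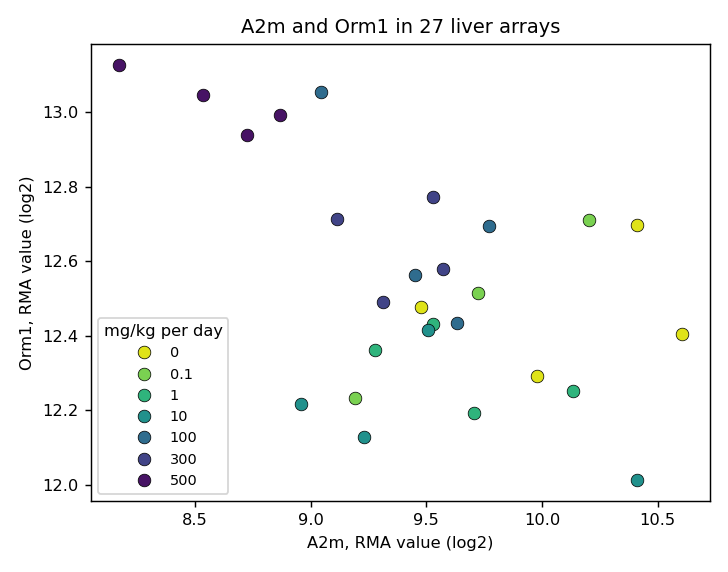
*Orm1* against *A2m* (log2 RMA values) in 27 liver arrays, coloured by dose. The 4 livers at 500 mg/kg lie at the upper left, with *A2m* of 8.17 to 8.87 and *Orm1* of 12.94 to 13.13.

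The named genes most like *A2m* over the 27 liver arrays by Pearson r were *Serpina7* (0.77), *Ssr4*, a subunit of the translocon-associated complex of the endoplasmic reticulum (0.74), *Serpina4*, kallistatin (0.74), *Hmgn2*, a nucleosome-binding protein (0.73), and *Apoa1*, the main apolipoprotein of high-density lipoprotein (0.72). Those most like *Orm1* were *Pcca*, a subunit of propionyl-CoA carboxylase (0.83), and *Cyp3a18*, a cytochrome P450 (0.80). *Cyp3a18* averaged 12.88 at 500 mg/kg and 12.34 in vehicle livers. The genes most like the others were *Card10* for *Hp* (0.72), *Atp5f1a* for *Crp* (0.82), *Ugt2b1*, a glucuronosyltransferase, for *Cp* (0.72), *Lcat*, the cholesterol acyltransferase of plasma, for *Hpx* (0.74), and *Tmem176b* for *Lbp* (0.72). *Lbp* was nearly as like *Clu*, clusterin (0.72).

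In kidney the 7 genes were expressed far below their liver level. In vehicle animals liver exceeded kidney by 6.75 for *A2m*, 8.64 for *Orm1*, 9.56 for *Hp*, 7.87 for *Crp*, 6.36 for *Cp* (1368420_at), 9.66 for *Hpx* and 3.63 for *Lbp*. All 7 passed in limma, with adjusted p of at most 5.52e-22, against 61.4% of all probe sets in either direction and 32.9% higher in liver. Detection calls were not used here, and for members as low in kidney as *A2m*, *Lbp*, *Orm1* and *Hpx*, above 17.96% to 27.07% of probe sets, the kidney value may be background and the difference is then a lower bound. The *Cp* probe set that is brightest in kidney, 1368419_at, differed by 0.28 (SE 0.14, limma adjusted p 0.0739), at 8.97 in vehicle liver and 8.69 in vehicle kidney. Whether both organs were normalized together is not given in the sources used here. Without the 2 arrays that carried *Xist* all 7 genes still passed, with *A2m* at 6.55.

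Excluding *Cp*, the members lay in the lower part of the kidney distribution, from *A2m*, above 17.96% of probe sets, to *Hp*, above 41.19%. The kidney value of *A2m* was 3.56, 3.42 and 3.49 at 500 mg/kg, against 3.43, 3.16 and 3.52 in vehicle kidneys, with overlap and a difference of 0.12 (SE 0.13, limma adjusted p 0.809). *Orm1* was 3.15, 3.96 and 3.48 at 500 mg/kg, against 3.63, 3.85 and 4.00 in vehicle kidneys, a difference of -0.30 (SE 0.41, limma adjusted p 0.852). No member passed at any dose or in the slope in kidney, where 0% of all probe sets passed in the limma fit. That count rested on vehicle kidney replicate 1. Without it 319, 201, 138, 23, 103 and 616 probe sets passed in dose order, and no member was among them. The vehicle group of that fit held only replicates 2 and 3, of which replicate 2 carried *Xist*. Which of the vehicle kidneys is typical was not tested, so these counts cannot be read as effects of dose. At an unadjusted p under 0.05 there were 0, 1, 1, 0, 0 and 0 of the 7 genes in dose order, against 5.9%, 6.98%, 4.9%, 3.95%, 3.62% and 10.1% of all probe sets.

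The change of *A2m* at 500 mg/kg was -1.54 in liver and 0.12 in kidney, and the difference between organs was -1.66 (SE 0.36, 95% interval -2.40 to -0.93). Its limma adjusted p was 0.0704, in a comparison where 0.029% of all probe sets passed. For *Orm1* the difference between organs was 0.85 (SE 0.37, limma adjusted p 0.416). Labels do not tie liver and kidney arrays to animals, but *Xist* marked the same number in both organs, so arrays of 1 dose and number may share an animal. With each of the 16 such pairs as a random term (duplicateCorrelation, added after the values were seen, consensus correlation 0.031), the difference was -1.66 (SE 0.36, limma adjusted p 0.0607). The call for *A2m* turned on single arrays, with a limma adjusted p of 0.0102 without vehicle kidney replicate 1 and 0.0207 without vehicle liver replicate 1. Without both arrays that carried *Xist* the difference was -1.46 with a limma adjusted p of 0.488.

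The kidney array labelled 1 mg/kg replicate 1 had the highest value of the 17 kidney arrays for *Hp*, *Hpx*, *Orm1*, *Crp* and all 3 *Cp* probe sets, but not for *A2m* or *Lbp*. *Hp* stood there at 7.71 (3.95 to 4.96 in the other 16), *Hpx* at 5.86 (3.20 to 4.76) and *Orm1* at 5.23 (3.04 to 4.53). *A2m* stood at 3.51, within 2.99 to 3.80. Liver transcripts were high in the same array, with *Alb* at 12.55 (2.67 to 6.24 in the other 16), *Ttr* at 9.32 (4.29 to 5.76), *Serpina1* at 7.64 (3.24 to 4.93) and *Cps1*, a urea cycle enzyme, at 6.20 (2.72 to 3.24).

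Of the 9 hepatocyte markers 7 were highest of the 17 in that kidney array, and the summed linear signal of the list was 14292, against 6849 to 9916 in the other 16. *Hnf4a* and *Cyp2e1*, which kidney also expresses, were within the range of the others. The part of these transcripts in the members' values was not tested. At 1 mg/kg the other kidney array had *Hp* at 4.45 and *Hpx* at 3.27, and the difference of *Hp* from vehicle was 1.64 with both arrays (SE 0.61, limma adjusted p 0.672), 0.01 without replicate 1 (SE 0.31, limma adjusted p 0.999) and 3.28 without replicate 2 (SE 0.31, limma adjusted p 0.000102). In the fits with a lone array at 1 mg/kg, that array was assumed to vary like those of the other groups.

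**Figure D5:**
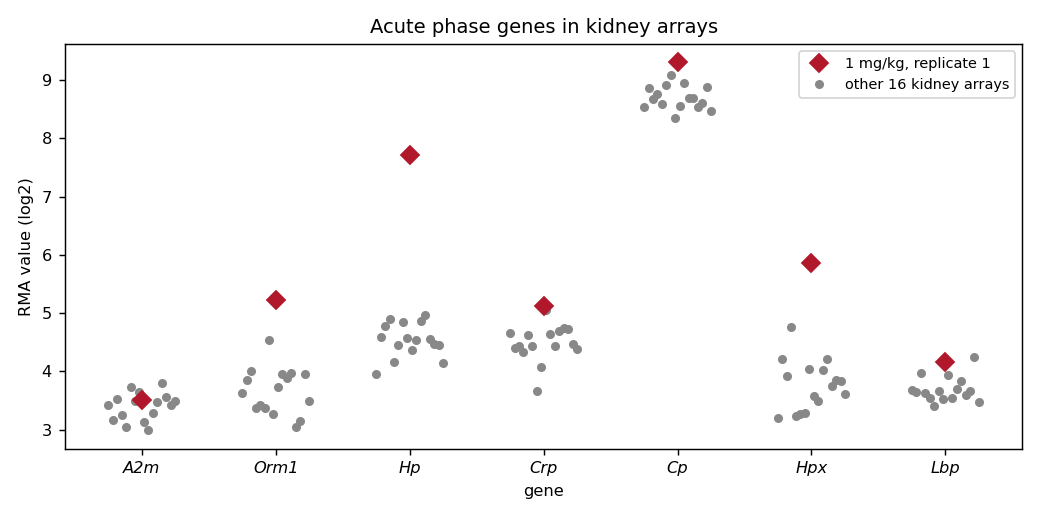
Level of the 7 genes (log2 RMA value, vertical axis; *Cp* by 1368419_at) in the 17 kidney arrays, with the 1 mg/kg replicate 1 array as a red diamond and the other 16 as grey points. That array lies above all others for *Hp*, at 7.71, and for *Hpx*, at 5.86, and among the others for *A2m*, at 3.51.

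The member with an unadjusted p under 0.05 at 10 mg/kg in kidney was *Crp*. It was 3.66 and 4.08 at 10 mg/kg, against 4.66, 4.39 and 4.43 in vehicle kidneys. The difference was -0.63 (SE 0.20, p 0.00838 before adjustment), with a limma adjusted p of 0.993.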

How the data were processed

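Total RNA of rat liver and kidney was hybridized to Affymetrix Rat Genome arrays, per the labels' protocols. The deposited table holds log2 values that the authors summarised by RMA, per the submitters' processing notes. RMA corrects background, quantile-normalizes and combines probes, which hides a shift of most transcripts in 1 direction and compresses changes of dim probe sets. Its version was not stated, and neither was a joint normalization of the organs. Scanner files were not used. Arrays with batch effects were removed by the authors before deposit, per the design text, and the samples of a group are called biological replicates in the labels.

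Of 31099 probe sets 57 are controls and were left out. Of the 31042 tested, 20826 carry 1 symbol, 436 more than 1 and 9780 none. Of those with 1 symbol, 20758 were matched by gene ID to RefSeq (assembly GRCr8), and the RefSeq name was used. A gene stands for its brightest probe set in the organ. In limma 3.58.1 (R 4.3.3), the 7 dose groups of an organ were fitted together with lmFit and eBayes, and organ differences in 1 fit of all 44 arrays, without an animal term. Tests were two-sided. Alternatives were replicate blocks, other moderation, normalization, filters and array sets, each array left out, and a few added after values were seen. The fits were tested on simulated data.

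The named genes are the 7 members, list genes past the threshold (else the 2 with the smallest p), and the 5 genes most like *A2m* and 2 most like each other member. *Mug1*, *Pzp*, *Alb*, *Ttr*, *Il6*, *Stat3* and *Socs3* were named in addition. The members and lists were chosen with earlier results of these data known.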

Additional observations from a re-analysis of the deposited data

Results flagged for a closer look

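In 54 groups of 4 liver arrays, 3 held an array whose gap to its neighbour was large for the range of the group, where chance alone flags about 1 in 20 groups. *Hp* at 500 mg/kg was 13.93 in replicate 3 and 14.01 to 14.02 in the other 3 livers. *Hpx* at 1 mg/kg was 13.44 in replicate 4 and 13.38 in the other 3 livers. *Lbp* at 100 mg/kg was 7.15 in replicate 3 and 7.58 to 7.66 in the other 3 livers. None of these genes passed the threshold at these doses.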

How the results depend on the processing

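Of 2576 recomputed values, 0 reversed a call and 2531 were counted as the same. A difference was so counted if it stayed on its side of the threshold. If it passed in neither fit, its sign could change. A count of members past the threshold was so counted if equal or nearly so. For *A2m* at 500 mg/kg against vehicle, leaving out each array gave -1.76 to -1.38 (limma adjusted p 0.00346 to 0.0772, passing in 4 of 8 fits), and fitting only the groups compared gave -1.54 with a limma adjusted p of 0.0841. Its slope ranged over -0.22 to -0.18 with single arrays left out (passing in 26 of 27 fits) and was -0.13 without the 500 mg/kg group and -0.19 without the vehicle group. Against the pooled low doses it was -1.15 to -0.92 with single arrays left out (passing in 10 of 15 fits, lost without each 500 mg/kg array and without 0.1 mg/kg replicate 1) and -1.06 in the fit of only the groups compared, where the limma adjusted p was 0.0733.

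*Orm1* at 500 mg/kg was 0.56 and passed over the brighter probe sets alone (limma adjusted p 0.0244, fewer tests) and with trended, robust moderation (limma adjusted p 0.0435). Leaving out each array gave 0.50 to 0.64 against vehicle and 0.66 to 0.73 against the pooled low doses. Against the pooled low doses it was 0.70 in the fit of all 44 arrays and did not pass (limma adjusted p 0.105). That fit uses a single spread for both organs. The SD of *Orm1* within a group reached 1.32 in kidney, at 1 mg/kg, and 0.27 in liver, at 100 mg/kg. The cause of these changes was not tested. *Crp* passed in that comparison with trended, robust moderation (0.21, limma adjusted p 0.0281).

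Of the members, 1 passed in liver at 500 mg/kg against vehicle, which became 2 over the brighter probe sets, 2 with trended, robust moderation, 0 in the fit of only the groups compared and 0 to 1 with arrays left out. In the slope the 1 became 0 without the 500 mg/kg group, 0 without the vehicle group and 0 to 1 with arrays left out. Against the pooled low doses the 2 became 1 in the fit of only the groups compared, 1 in the fit of all 44 arrays and 1 to 2 with arrays left out. In the organ difference at 500 mg/kg the 0 became 1 over the brighter probe sets and 0 to 1 with arrays left out. In kidney 0 to 1 passed at 1 mg/kg and against the pooled low doses with arrays left out, the 1 being *Hp* without 1 mg/kg replicate 2.

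The counts over all probe sets moved more, from 55 at 500 mg/kg to 9 to 84 with arrays left out and 1 to 136 in other settings, and from 38 at 300 mg/kg to 0 to 22 and 2 to 139. They moved from 76 in the slope to 12 to 91 and 2 to 211, and from 149 against the pooled low doses to 30 to 146 and 79 to 378. In kidney the 0 at each dose, in dose order, became as many as 319, 201, 138, 23, 103 and 616 with arrays left out. Each of these was the fit without vehicle replicate 1, which left replicate 3 and the vehicle kidney that carried *Xist*. In other settings the 0 became up to 50, 48, 2, 2, 0 and 425. The organ difference moved from 9 to 0 to 746 with arrays left out and 0 to 70 in other settings.

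Arrays share replicate numbers across doses. In liver 14 of 78 same-numbered pairs deviated together with a correlation above 0.1 (-0.14 to 0.23, median 0.019, against -0.007 for other pairs), and in kidney 12 of 33 did (-0.35 to 0.36, median 0.055, against -0.055). The labels name no shared animal or batch, and the main fits did not take the numbers as pairing. These correlations cannot decide whether arrays of the same number share a batch, since a batch need not affect every pair. As a hint of some shared deviation, 16 of 27 liver arrays and 7 of 15 kidney arrays correlated best with their own number, which 25% and 35.5% of the pairs share. With the replicate number as a block *A2m* at 500 mg/kg was -1.54 with a limma adjusted p of 0.0107, and probe sets past the threshold numbered 42 at 500 mg/kg and 60 at 300 mg/kg. A kidney array at 10 mg/kg carries no number and was left out of that fit.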
